A study of Mus musculus with 9 samples.

Results

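The 39 Hox genes of the mouse were examined in RNA sequencing (RNAseq) counts from 9 cultures of mouse embryonic fibroblasts (MEFs). Members were all protein-coding genes named Hoxa, Hoxb, Hoxc or Hoxd plus a number in the GENCODE M21 annotation, 39 of the 43629 genes in the deposited count table. Of these, 38 had at least 1 count and 37 passed the filter on low counts and were tested, among 14567 tested genes. The 4 WT and 5 Dp1Tyb cultures came from littermate E14.5 embryos, whose strain is labelled C57BL/6J.129P2 in both groups and was backcrossed to C57BL/6JNimr per the methods. The Dp1Tyb genotype, Dp(16Lipi-Zbtb21)1TybEmcf, is a duplication of mouse chromosome 16 from *Lipi* to *Zbtb21* that models Down syndrome, and WT cultures lack it. Heads and internal organs of the embryos were removed before the cells were dispersed and passaged, so each culture mixes fibroblasts from the trunk and limbs of an embryo. The culture code in the labels starts with MEF1 for WT 1 and Dp1Tyb 1 and with MEF2 for the other 7 cultures.

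Hox genes code for homeodomain transcription factors that give cells their position along the head-to-tail axis of the body. They lie in 4 clusters, and within a cluster the order of the genes on the chromosome matches the order of their expression along the body, with low numbers expressed from more anterior levels and high numbers in the tail, the distal limb and the genital bud. Genes of the same number in different clusters are paralogs and form a paralog group. Fibroblasts keep much of the Hox code of their place of origin in culture. Genes 1 to 3 are called anterior here, genes 4 to 8 central and genes 9 to 13 posterior, which gives 8, 15 and 16 genes.

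By GENCODE M21 coordinates on GRCm38, the Hoxa cluster holds 11 genes on the minus strand of chromosome 6, from 52155590 to 52260880. The Hoxb cluster has 10 genes on the plus strand of chromosome 11, from 96194316 to 96368256. The Hoxc cluster has 9 genes on the plus strand of chromosome 15, from 102921103 to 103036852, and the Hoxd cluster 9 genes on the plus strand of chromosome 2, from 74668310 to 74765142. None of them lies in the duplicated region.

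RefSeq promoter windows of GRCm38.p6, each of 300 bases with 250 before the start and 50 after it, were given for 22 of the 39 Hox genes, with 24 windows in all. Below are the bases from 250 to 51 before the start for a central and a posterior gene of Hoxa and of Hoxd. Position was used because the direction of the fitted genotype difference in the Hox genes split by it. *Hoxd8* was an exception to that split, with a log2 fold change of -0.09, below 0 like *Hoxd13* at -0.38. Capitals mark the GC box, spelled GGGCGG, wherever it is found on either strand. They also mark the box known as CCAAT after its letters, and the TATA box in the spelling TATAAA, on either strand too. Repeated GC boxes overlap in part.
*Hoxa6* (central), chr6:52208723-52208922, minus strand: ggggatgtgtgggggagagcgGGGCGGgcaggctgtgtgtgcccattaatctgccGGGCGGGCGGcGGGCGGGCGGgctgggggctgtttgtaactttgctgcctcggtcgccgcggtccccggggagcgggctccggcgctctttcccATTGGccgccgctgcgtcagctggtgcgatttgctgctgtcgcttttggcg
*Hoxa13* (posterior), chr6:52260931-52261130, minus strand: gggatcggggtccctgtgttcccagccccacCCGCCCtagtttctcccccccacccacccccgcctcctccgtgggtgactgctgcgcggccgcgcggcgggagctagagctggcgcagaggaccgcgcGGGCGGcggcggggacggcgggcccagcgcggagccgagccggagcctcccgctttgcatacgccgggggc
*Hoxd8* (central), chr2:74704365-74704564, plus strand: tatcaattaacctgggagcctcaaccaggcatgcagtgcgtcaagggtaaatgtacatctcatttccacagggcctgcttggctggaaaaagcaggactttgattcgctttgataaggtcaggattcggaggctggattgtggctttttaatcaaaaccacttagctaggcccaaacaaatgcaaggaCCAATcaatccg
*Hoxd13* (posterior), chr2:74667975-74668174, plus strand: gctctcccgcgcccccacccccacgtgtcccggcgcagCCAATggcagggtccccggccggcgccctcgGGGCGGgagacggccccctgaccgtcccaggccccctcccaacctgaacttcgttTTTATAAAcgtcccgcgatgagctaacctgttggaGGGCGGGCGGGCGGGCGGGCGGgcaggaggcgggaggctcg

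In the 300-base windows, CG dinucleotides numbered 37 at *Hoxd13* and 45 at *Hoxa13*, against 26 at *Hoxa6* and 6 at *Hoxd8*. The median was 20 over the 11 posterior windows, with a range of 4 to 45. It was 13 over the 13 anterior and central windows, with a range of 4 to 29, and 7.0 over all 32841 RefSeq windows. The ranges of the position classes thus overlapped. GC boxes were present in 6 of 11 posterior and 4 of 13 anterior and central windows, against 35.7% of all windows. CCAAT boxes were present in 5 of 11 and 10 of 13, against 37.4% of all windows. The letters TTTATG, a motif of the caudal-related Cdx factors that act upstream of Hox genes in the embryo, were present in 5 of 24 Hox windows, against 11.9% of all windows. TATA boxes were present in 4 of 24, against 13.6%. These matches describe letters and were not tested.

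Each culture had 24804539 to 30009361 counts in all, of which the Hox genes took 0.0392% to 0.0443%. The genotype labels were checked with the 89 tested genes of the duplicated region. Their summed normalised counts were 148060 to 157640 in WT and 216850 to 250910 in Dp1Tyb cultures, without overlap, and their median fitted log2 fold change was 0.58. Normalised counts are counts scaled with edgeR's TMM factors to a common library size. In 14567 tested genes, 24 passed a Benjamini-Hochberg adjusted p of 0.05 in edgeR's quasi-likelihood test, of which 22 are in the duplicated region. Levels of different genes are compared only per length, in RPKM, the count divided by the exon length of the gene in kilobases and by the library total. In bulk RNA of this kind, fewer cells of a type and less RNA per cell cannot be told apart.

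To describe the positional code, the level of each Hox gene was followed along its cluster. All 4 clusters were transcribed in every culture, and in each the highest members were central or posterior genes. By the mean over the 9 cultures, the Hoxb cluster had the largest summed level, 54.6 RPKM with a range of 42.7 to 66.3, followed by the Hoxc cluster with 45.6 RPKM and a range of 37.0 to 55.5. The Hoxa cluster had 24.97 to 44.2 RPKM and the Hoxd cluster 17.0 to 49.2 RPKM, so that Hoxd varied most between cultures. The order of the means did not hold in every culture. Hoxd exceeded every other cluster in WT 1 and exceeded Hoxa in Dp1Tyb 3. Hoxa exceeded Hoxc in WT 1, Dp1Tyb 1 and Dp1Tyb 2. Over the mean of the 9 cultures, 8 Hoxa, 8 Hoxb, 6 Hoxc and 5 Hoxd genes exceeded 1 RPKM. Anterior genes together made 4.49% to 7.18% of the summed Hox RPKM of a culture, central genes 40.6% to 57.8% and posterior genes 35.7% to 53.3%.

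**Figure D1:**
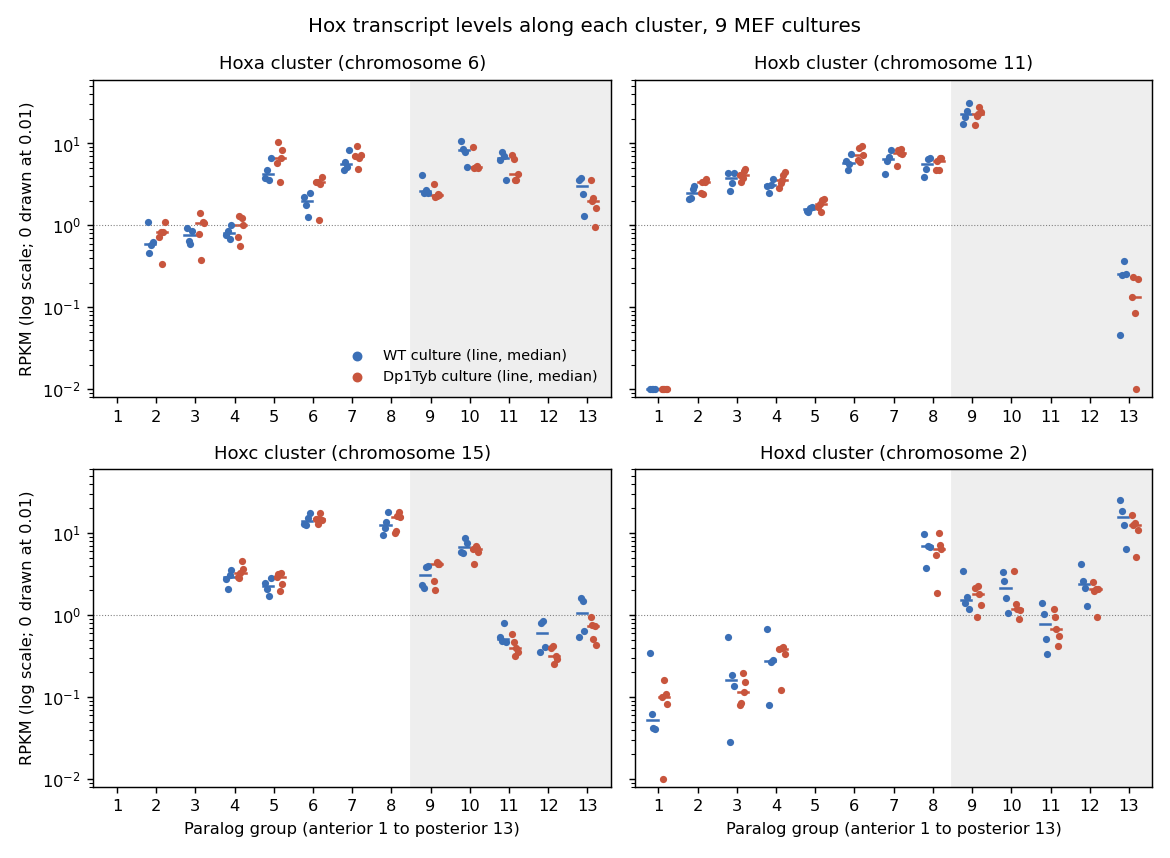
RPKM of 38 Hox genes (vertical axis, logarithmic, values of 0 drawn at 0.01) by paralog group (horizontal axis) in each cluster, with a point per culture, a line at the median of 4 WT (blue) and 5 Dp1Tyb (red) cultures, grey shading for posterior genes and a dotted line at 1 RPKM. *Hoxb9*, with a mean of 23.1 RPKM, stands at the top of its cluster in all 9 cultures, *Hoxb13* and the anterior Hoxd genes stay under 1 RPKM, and the blue and red points overlap for every tested gene drawn.

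The Hoxb code peaked at *Hoxb9*, a gene of the thoracic and limb levels, and the only Hoxb gene posterior to it is *Hoxb13*. *Hoxb9* was the most abundant Hox gene by mean level, with 23.1 ± 4.50 RPKM (SD, n = 9), and the top Hoxb gene in 9 of 9 cultures. Its normalised counts were 1115, 1456, 1654 and 2106 in WT 1 to 4 and 1119, 1545, 1576, 1936 and 1669 in Dp1Tyb 1 to 5. WT 1 and Dp1Tyb 1 were the lowest and WT 4 the highest. The next Hoxb gene by mean level was *Hoxb7*, a central gene, with 6.98 ± 1.49 RPKM, which had normalised counts of 164, 253, 273 and 337 in WT and 212, 355, 316, 363 and 305 in Dp1Tyb cultures. *Hoxb13*, a gene of the tail bud and hindgut, had at most 0.372 RPKM and was listed at 0 in Dp1Tyb 4. *Hoxb1*, which patterns the hindbrain, had no count in any culture, which allows up to 3 counts in each.

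The Hoxc cluster was led by the central genes *Hoxc6* and *Hoxc8*, both known for their roles at thoracic levels. *Hoxc6* had 14.7 ± 1.85 RPKM and was the top Hoxc gene in 5 cultures, and *Hoxc8* had 13.7 ± 3.44 RPKM and was the top gene in the other 4. *Hoxc6* had the smallest spread of these genes, with normalised counts of 772, 800.1, 964 and 1116 in WT and 923, 851, 954, 1143 and 941 in Dp1Tyb cultures. *Hoxc8* had 660.4, 864, 1012 and 1363 normalised counts in WT and 743, 816, 1203, 1397 and 1180.0 in Dp1Tyb cultures, with WT 4 and Dp1Tyb 4 highest. Beyond *Hoxc10*, a lumbar gene with 6.41 RPKM, the level dropped to means of 0.491, 0.452 and 0.851 RPKM for *Hoxc11*, *Hoxc12* and *Hoxc13*.

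In the Hoxa cluster, the top gene differed between cultures. *Hoxa10*, a posterior gene of the lower trunk, limb and uterus, had the highest mean level, 6.87 ± 2.16 RPKM, and was the top gene in 5 cultures, while the central genes *Hoxa5* and *Hoxa7* were the top gene in 2 cultures each. *Hoxa7* had a mean of 6.61 ± 1.55 RPKM, so that its mean and that of *Hoxa10* lay within the spread of either. The top gene also depended on the length used. Per kilobase of exon that no other gene overlaps on either strand, *Hoxa11* led with 8.51 ± 2.69 RPKM, and 10 rather than 8 Hoxa genes exceeded 1 RPKM. There the whole count was divided by the shorter length, and whether reads of shared bases were counted is not known. With overlaps on the same strand only, *Hoxa10* and *Hoxa11* kept all their exon bases, and 8 Hoxa genes exceeded 1 RPKM. *Hoxa2*, an anterior gene that patterns the pharyngeal arches, had a low level, with a mean of 0.729 RPKM. *Hoxa13*, which patterns the digits and the genital bud, had 2.38 ± 1.05 RPKM and ranged 3.97-fold between the lowest and the highest culture.

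The Hoxd cluster had peaks at its posterior end and in its centre. *Hoxd13*, the paralog of *Hoxa13* in digits and genital bud, had 13.5 ± 6.21 RPKM and was the top Hoxd gene in 7 cultures. *Hoxd8*, a central gene of the trunk, had 6.45 ± 2.58 RPKM and was the top gene in the other 2. Between them, *Hoxd9* to *Hoxd12* had means of 0.782 to 2.20 RPKM, and *Hoxd1*, *Hoxd3* and *Hoxd4* were at 0.104, 0.169 and 0.327 RPKM. *Hoxd1* had 0 to 19 counts and was not tested. The exons of *Hoxd3* and *Hoxd4* overlap each other and other genes, leaving 1557 of 4191 and 1406 of 2948 exon bases free of any other gene, so their counts are uncertain.

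Within most paralog groups, the same cluster supplied the most abundant gene in every culture. This held in 9 of 9 cultures for 9 of the 13 groups, among them group 9, where *Hoxb9* exceeded *Hoxc9* 7.0-fold in mean RPKM, and group 13, where *Hoxd13* exceeded *Hoxa13* 5.69-fold. In group 11, *Hoxa11*, a gene of the forearm and shank, exceeded *Hoxd11* 7.07-fold. The order was not stable in groups 4, 7 and 10. *Hoxb4* and *Hoxc4* differed 1.07-fold in mean RPKM, *Hoxb7* and *Hoxa7* 1.06-fold, and *Hoxa10* and *Hoxc10* 1.07-fold, less than the spread between cultures, with the gene of the higher mean on top in 8, 6 and 4 cultures. In group 8, *Hoxc8* was on top in 8 cultures.

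To compare the genotypes, each Hox gene was tested in the fit over all 14567 genes. No Hox gene passed an adjusted p of 0.05 in edgeR's quasi-likelihood test (adjusted p = 0.9997 for each of the 37), where 0.165% of all tested genes passed. DESeq2 called no Hox gene either, against 0.332% of its tested genes. Before adjustment, 1 Hox gene of 37 had a p under 0.05 in edgeR and none in DESeq2, where 3.13% and 2.28% of all tested genes did. The WT and Dp1Tyb normalised counts overlapped for all 37 genes, while the groups did not overlap for 1.36% of all tested genes. The fitted log2 fold changes of Dp1Tyb over WT ran from -0.77 to 0.69, with 20 above and 17 below 0 and a median of 0.08, against 0.0027 over all genes. By cluster, the median was 0.23 for Hoxa, 0.27 for Hoxb, 0.08 for Hoxc and -0.25 for Hoxd, and with single cultures left out those of Hoxc and Hoxd changed sign. The mean of log2(RPKM + 0.1) over all members of a cluster differed between the genotypes by 0.05 in Hoxa, 0.10 in Hoxb, -0.09 in Hoxc and -0.20 in Hoxd, Dp1Tyb minus WT, each less than the SD between cultures of the same genotype (0.25, 0.19, 0.17 and 0.49).

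The direction of the fitted fold change split by position, although none of the single genes passed the test. Among the 21 tested anterior and central genes, 19 had a fold change above 0, with a median of 0.27 on the log2 scale, where 51.0% of all tested genes were above 0. Of the 16 posterior genes, 15 had a fold change below 0, with a median of -0.37, where 49.0% of all tested genes were below 0. The exceptions were *Hoxd3*, at -0.76, and *Hoxd8*, at -0.09, among the anterior and central genes and *Hoxc9*, at 0.23, among the posterior genes. The genes of a cluster come from the same cultures, so they are not independent of each other and the split was not tested. With single cultures left out, the posterior median ran from -0.49 without WT 4 to -0.20 without WT 1 or without Dp1Tyb 4. The anterior and central median ran from 0.21 without WT 3 to 0.37 without WT 4. With only the MEF2 cultures, the medians were 0.31 and -0.35, and with the beta prior of DESeq2, which shrinks fold changes towards 0, they were 0.17 and -0.13.

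**Figure D2:**
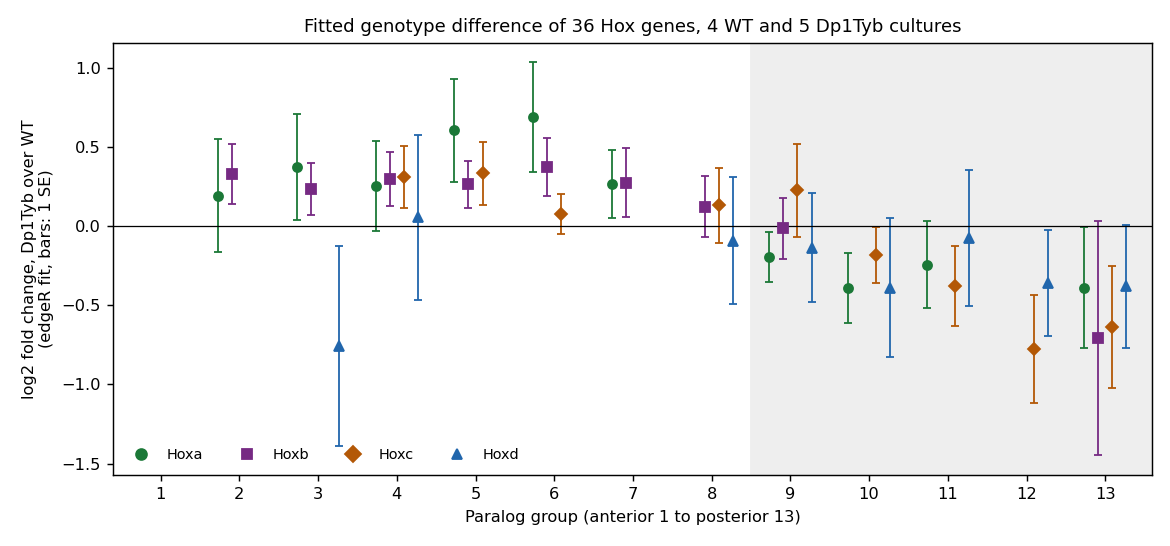
Fitted log2 fold change of Dp1Tyb over WT (vertical axis, edgeR, bars 1 SE) of 36 tested Hox genes by paralog group (horizontal axis), with a symbol and colour for each cluster and grey shading for posterior genes. Of the 20 anterior and central genes drawn, 18 are above 0, and of 16 posterior genes, 15 are below 0, while no gene passed the adjusted test.

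The named genes of the Hoxa cluster showed the split without exception. All 6 genes from *Hoxa2* to *Hoxa7* were above 0, from 0.19 to 0.69, and all 4 from *Hoxa9* to *Hoxa13* below, from -0.39 to -0.19. *Hoxa6*, a central gene of thoracic levels whose promoter is printed above, had the largest value of all, with normalised counts of 48.2, 41.5, 28.5 and 57.1 in WT and 77.2, 82.2, 26.99, 76.0 and 91.6 in Dp1Tyb cultures. Dp1Tyb 1, 2, 4 and 5 exceeded every WT culture and Dp1Tyb 3 was below all of them, and the log2 fold change was 0.69 ± 0.35 (SE, n = 4 and 5; edgeR, adjusted p = 0.9997). *Hoxa7* had 345, 460.2, 386 and 626 normalised counts in WT and 525, 738, 376, 529 and 561 in Dp1Tyb cultures, a log2 fold change of 0.27 ± 0.21. For *Hoxa7*, WT 4 was higher than all other cultures apart from Dp1Tyb 2.

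The posterior Hoxa genes had WT 4 among the low cultures and Dp1Tyb 1 among the high ones. *Hoxa10* had 862, 737, 679 and 443 normalised counts in WT and 768, 456, 449, 479 and 444 in Dp1Tyb cultures, and the log2 fold change was -0.39 ± 0.22. WT 4 was the lowest of all 9 cultures, and Dp1Tyb 1 lay between WT 1 and WT 2. *Hoxa13* had 223, 248, 156 and 85.1 in WT and 228, 136, 142, 63.9 and 109 in Dp1Tyb cultures, with the lowest values in Dp1Tyb 4 and WT 4, and its log2 fold change was -0.39 ± 0.38. It had the largest spread of the Hoxa cluster, with an SD of 0.66 on the log2 scale over the 9 cultures.

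**Figure D3:**
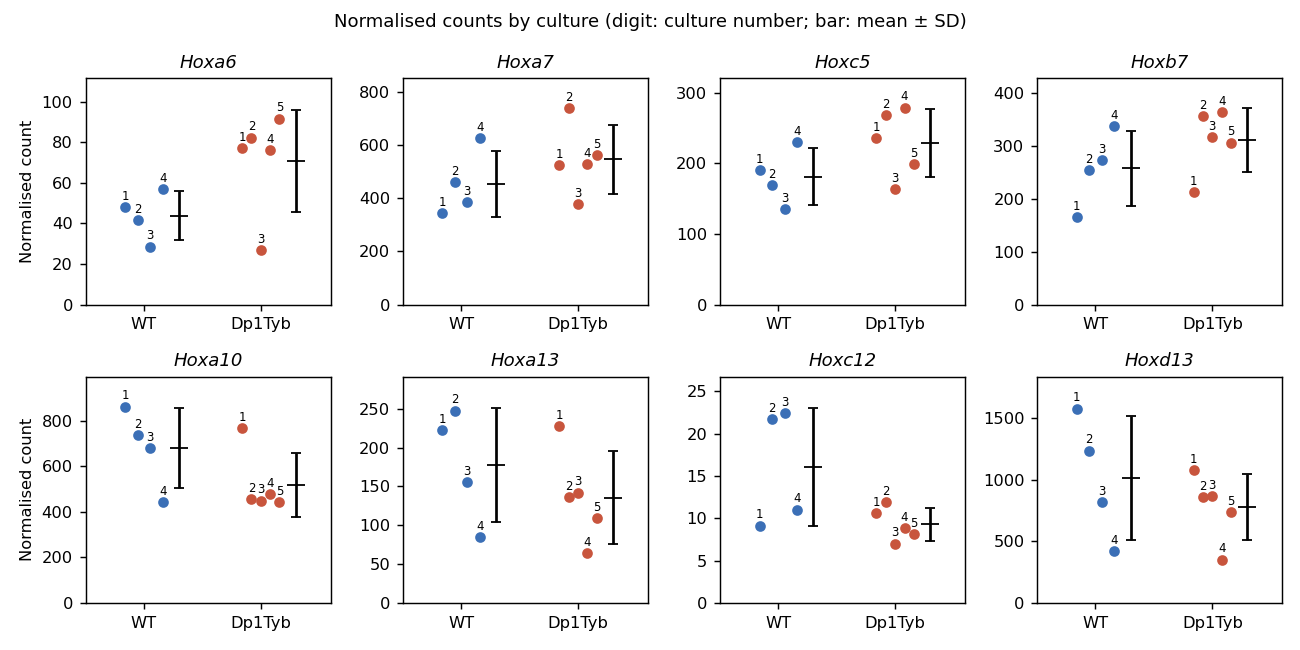
Normalised counts (vertical axis, from 0) of 4 central genes (top row) and 4 posterior genes (bottom row) in WT (blue) and Dp1Tyb (red) cultures, with the culture number beside each point and the mean ± SD as a black bar. The groups overlap in every panel, and culture 4 has the lowest *Hoxd13* and *Hoxa13* of its genotype.

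In the Hoxb cluster, the 7 genes from *Hoxb2* to *Hoxb8* had fold changes above 0, from 0.12 to 0.37, and the 2 posterior genes were below. *Hoxb6*, a central gene of thoracic levels, had the largest, 0.37 ± 0.18 (SE). Its normalised counts were 296, 249, 286 and 388 in WT and 315, 469.6, 310, 498 and 383 in Dp1Tyb cultures, with WT 4 among the Dp1Tyb values and the other WT cultures below them. The log2 fold change of *Hoxb7* was 0.27 ± 0.22 and that of *Hoxb9* -0.01 ± 0.19, with a change of sign when single cultures were left out. *Hoxb13* had 2.49, 14.51, 21.4 and 15.02 normalised counts in WT and 7.72, 14.1, 4.999, 0 and 13.2 in Dp1Tyb cultures. Its fold change of -0.71 ± 0.74 rests on these few counts. Of the *Hoxb3* exon bases, 2250 of 4251 lie antisense to *Hoxb3os*, and since the strand setting of the counting is not given in the sources used here, the reads of such pairs cannot be told apart.

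In the Hoxc cluster, *Hoxc4*, *Hoxc5*, *Hoxc6* and *Hoxc8* were above 0 and the 5 posterior genes, apart from *Hoxc9*, below. *Hoxc5*, a central gene of cervical and upper thoracic levels, had the largest value above 0, 0.34 ± 0.20. Its normalised counts were 190.2, 169, 135 and 230.4 in WT and 235, 268, 163, 279 and 199 in Dp1Tyb cultures. *Hoxc6* and *Hoxc8* had fold changes of 0.08 ± 0.13 and 0.13 ± 0.24.

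*Hoxc12* and *Hoxc13*, at the posterior end, had the lowest values of the Hoxc cluster. *Hoxc12* was the Hox gene with an unadjusted p under 0.05, with a log2 fold change of -0.77 ± 0.34 (SE). It had 9.14, 21.8, 22.4 and 11.02 normalised counts in WT and 10.6, 11.9, 6.998, 8.81 and 8.15 in Dp1Tyb cultures, so WT 2 and WT 3 stood above the rest and WT 1 and WT 4 lay among the Dp1Tyb cultures. The edgeR p was 0.045 before adjustment, and an exact permutation test of the log2 counts over all relabelings of the 9 cultures, two-sided, gave p = 0.095. *Hoxc13*, a gene of hair follicles and tail, had 33.2, 107, 94.7 and 42.1 in WT and 59.8, 50.9, 33.0, 49.6 and 28.5 in Dp1Tyb cultures, with WT 2 and WT 3 high again and a log2 fold change of -0.64 ± 0.38.

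The Hoxd cluster had the widest spread between cultures, and 6 of its 8 tested genes followed the split, all but *Hoxd3* and *Hoxd8*. The SD of log2 normalised counts had a median of 0.70 over its 8 tested genes, against 0.46 in Hoxa, 0.31 in Hoxb and 0.36 in Hoxc. *Hoxd13* had 1576, 1234, 818 and 418 normalised counts in WT and 1077, 855, 868, 351 and 733 in Dp1Tyb cultures. The WT range held 4 of the 5 Dp1Tyb values, Dp1Tyb 4 was below it, and the log2 fold change was -0.38 ± 0.39, or -0.08 without WT 1. *Hoxd9* to *Hoxd12* were also below 0, from -0.39 to -0.07.

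*Hoxd8* and the genes 3 and 4 of this cluster varied by culture without a pattern by genotype. *Hoxd8* had 664, 273, 495 and 495 normalised counts in WT and 382, 141, 726, 537 and 477 in Dp1Tyb cultures, lowest in Dp1Tyb 2 and WT 2, with a log2 fold change of -0.09 ± 0.40. *Hoxd4* had 49.8, 6.22, 20.4 and 22.0 in WT and 29.0, 9.74, 31.0, 33.0 and 26.5 in Dp1Tyb cultures, lowest in the same 2 cultures, with 0.06 ± 0.52. *Hoxd3* had 56.5, 3.11, 20.4 and 15.02 in WT and 8.69, 9.74, 22.0, 13.2 and 17.3 in Dp1Tyb cultures, with -0.76 ± 0.63. WT 1 held the highest *Hoxd3* and *Hoxd4* values, and with only the MEF2 cultures *Hoxd3* and *Hoxd8* turned to 0.28 and 0.16.

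Cultures of the same genotype also differed from each other in the Hox code. Of the 37 tested Hox genes, 36 had a larger SD over the 9 cultures than the median of all tested genes. This SD pools WT and Dp1Tyb cultures, so it also holds any difference between the genotypes. The Hox median was 0.41 against 0.22 on the log2 scale. The SD of 24.3% of all tested genes was above that Hox median, and genes of like level were not compared. For each culture, the deviation of each gene from its mean over the 9 cultures was averaged over the anterior and central genes and over the posterior genes, as log2(normalised count + 1). The posterior mean was 0.22, 0.36, 0.31 and -0.24 in WT 1 to 4 and 0.26, -0.05, -0.16, -0.52 and -0.17 in Dp1Tyb 1 to 5. The anterior and central mean was -0.05, -0.46, -0.18 and 0.17 in WT and -0.10, 0.13, -0.16, 0.35 and 0.30 in Dp1Tyb cultures. WT 1, WT 2, WT 3 and Dp1Tyb 1 thus had the posterior mean above 0 and the other below it, WT 4, Dp1Tyb 2, Dp1Tyb 4 and Dp1Tyb 5 the reverse, and Dp1Tyb 3 had both below 0.

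**Figure D4:**
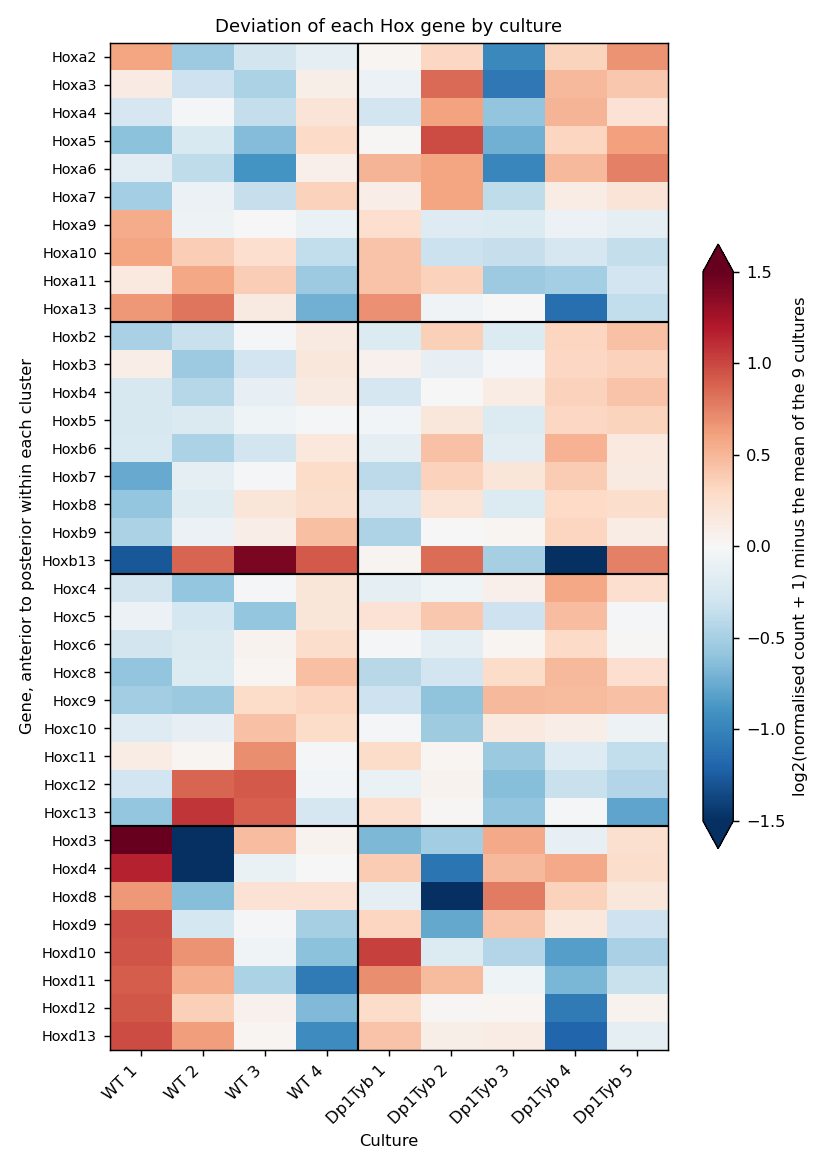
Deviation of log2(normalised count + 1) from the mean of the 9 cultures (colour, red above the mean) for 36 tested Hox genes (rows, anterior to posterior within each cluster) in each culture (columns, WT left of the line). WT 4 and Dp1Tyb 4 are blue from *Hoxd10* to *Hoxd13* and in *Hoxa13*, where WT 1, WT 2 and Dp1Tyb 1 are red.

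The difference of the 2 means, posterior minus the other, was 0.27, 0.81, 0.49 and -0.41 in WT and 0.37, -0.18, -0.01, -0.87 and -0.47 in Dp1Tyb cultures. The groups overlapped through WT 4 and Dp1Tyb 1, and the mean of Dp1Tyb was 0.52 below that of WT. Within the MEF2 cultures, 3 WT and 4 Dp1Tyb, it was 0.68 below, whereas in the MEF1 pair Dp1Tyb 1 was 0.10 above WT 1. With single cultures left out, the Dp1Tyb mean stayed below that of WT, by 0.76 without WT 4, by 0.35 without WT 2 and by values between these without each other culture. This difference restates the same counts as the fold changes, with classes compared after those had been seen, and was not tested.

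The 7 genes numbered 10 to 13 of the Hoxa and Hoxd clusters, which are known for their joint work in the limb and genital bud, were read together in each culture. In WT 1, WT 2, WT 3 and Dp1Tyb 1, 6, 7, 5 and 7 of them were above their own median over the 9 cultures. In Dp1Tyb 2 and Dp1Tyb 3, 2 and 1 were above it, and in WT 4, Dp1Tyb 4 and Dp1Tyb 5 none was. Dp1Tyb 4 was the lowest culture for 4 of the 7 genes and WT 4 for the other 3. Of the 21 anterior and central genes, 15 were above their median in WT 4, 19 in Dp1Tyb 4 and 16 in Dp1Tyb 5, against 6, 0, 3 and 3 in WT 1, WT 2, WT 3 and Dp1Tyb 1.

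Expressed as a share of RPKM, posterior genes made 53.3%, 53.0%, 48.7% and 38.8% of the Hox total in WT and 48.0%, 40.0%, 43.6%, 35.7% and 38.6% in Dp1Tyb cultures. WT 1 to 3 exceeded every Dp1Tyb culture, and WT 4 was below 3 of them. In the Hoxa cluster alone, the posterior share was 62.8%, 59.6%, 61.1% and 37.2% in WT and 54.7%, 35.7%, 52.9%, 37.3% and 35.9% in Dp1Tyb cultures. In Hoxb it was 38.2% to 47.0%, nearly all from *Hoxb9*, in Hoxc at most 31.5% and in Hoxd 54.2% to 89.6%.

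**Figure D5:**
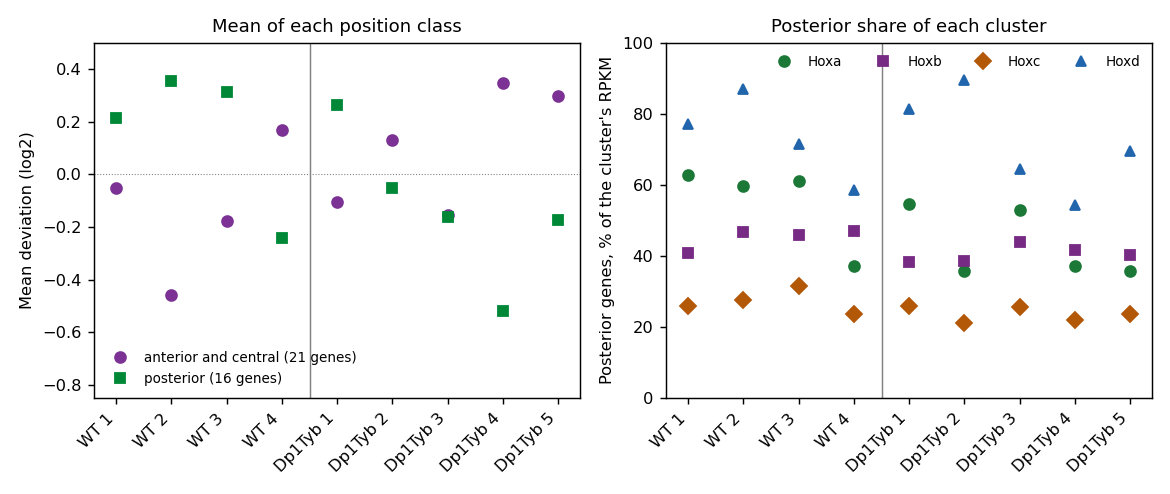
Left, mean log2 deviation (vertical axis) of the 21 anterior and central and the 16 posterior Hox genes in each culture (horizontal axis, WT left of the line). Right, posterior genes as a percentage of each cluster's summed RPKM in the same cultures, with the Hoxa share at 37.2% in WT 4 and at 52.9% to 62.8% in WT 1 to 3, Dp1Tyb 1 and Dp1Tyb 3.

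Other transcription factors of limb and body region were read beside the Hox genes, since MEF cultures hold cells of several regions. None of the 26 tested genes of a list of 29 passed the adjusted test, 21 had a fold change below 0, where 49.0% of all tested genes did, and the list's median was -0.23. An unadjusted p under 0.05 with a lower value in Dp1Tyb was found for 2 of the 26, where 1.77% of all tested genes had one. *Tbx4*, which marks the hindlimb, had 677, 888, 691 and 326 normalised counts in WT and 489, 474, 435, 289 and 379 in Dp1Tyb cultures (log2 fold change -0.64 ± 0.26, SE). WT 4 and Dp1Tyb 4 were its lowest cultures, as for *Hoxd13*. The other was *Tfap2b*, a gene of neural crest and distal limb, with 264, 417, 239 and 146 in WT and 187, 159, 217, 113 and 112 in Dp1Tyb cultures and a fold change of -0.76 ± 0.30. The members with the highest levels, *Prrx1* and *Prrx2*, genes of limb and facial mesenchyme, and *Tbx15*, a gene of the skeleton and skin, had means of 42.0, 26.5 and 30.9 RPKM and fold changes of -0.07, -0.25 and -0.21. *Tbx5*, which marks the forelimb, was highest in WT 1 with 493 and Dp1Tyb 1 with 335 normalised counts, the pair with MEF1 codes, and had 87.7 to 185 in the MEF2 cultures. How far the regional make-up of the cultures enters the Hox values was not tested.

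Transcripts from within or beside the clusters had few counts. The 19 noncoding and neighbouring genes in the table, from a list of 22, summed to 364 to 470.2 normalised counts in WT and 375 to 439 in Dp1Tyb cultures. Of these, 9 were tested and none passed the adjusted test or an unadjusted p of 0.05. *Hoxa11os*, antisense to *Hoxa11*, had 96.4, 105, 73.3 and 22.0 normalised counts in WT and 67.6, 55.2, 41.0, 29.7 and 29.5 in Dp1Tyb cultures, with WT 4 lowest (log2 fold change -0.73 ± 0.43). It shares 800 exon bases with *Hoxa11*, so reads of this pair are uncertain too. *Evx2*, a homeobox gene next to *Hoxd13*, had 79.7, 60.1, 22.4 and 17.0 in WT and 48.3, 54.1, 46.0, 19.8 and 31.6 in Dp1Tyb cultures, with WT 4 and Dp1Tyb 4 lowest. *Hottip*, at the posterior end of Hoxa, and *Hotair*, within Hoxc, had at most 11.6 and 7.13 normalised counts and were not tested.

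Cofactors and regulators of Hox genes did not pass the test. All 9 Pbx, Meis and Pknox genes, whose proteins bind DNA together with Hox proteins, were expressed, and none had an unadjusted p under 0.05. Among the highest levels were those of *Pbx2* and *Meis3*, with means of 10.7 and 9.13 RPKM and log2 fold changes of 0.02 ± 0.08 and -0.06 ± 0.16. Of 28 Polycomb genes, which keep Hox genes silent, 20 had a fold change below 0 with a median of -0.05, and of 16 trithorax-type genes, which keep them active, 14 were below 0 with a median of -0.05, where 49.0% of all tested genes were below 0. None of these 44 genes had an unadjusted p under 0.05. Among 13 tested of 20 genes for retinoic acid, which activates anterior Hox genes, and Cdx factors, 11 were below 0, and 1 had an unadjusted p under 0.05 in edgeR, where 3.13% of all tested genes had one. This was *Crabp1*, a retinoic acid binding protein, with a fold change of -0.70 ± 0.26. *Crabp1* had 7752, 17798, 23580.0 and 19263 normalised counts in WT and 10195, 9081, 11745, 11211 and 10359 in Dp1Tyb cultures. WT 2 to 4 were higher than every Dp1Tyb culture and WT 1 lower than all of them. *Cdx2* had no count in any culture.

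Marker lists of cell types were summed to see what else differed between the cultures. The 8 fibroblast markers were high in all cultures, with summed normalised counts of 807670 to 1198200 in WT and 604980 to 1250000 in Dp1Tyb cultures, and had a median fold change of 0.0049. The 5 markers of glia and neural crest had sums of 777 to 1589 in WT and 230 to 760 in Dp1Tyb cultures, which do not overlap, and all 4 tested members had a lower fitted value in Dp1Tyb with an unadjusted p under 0.05, where 1.77% of all tested genes did. On the log2 scale they included *Sox10* at -1.71, *Foxd3* at -1.79 and *Erbb3* at -1.56, and none of the 4 passed the adjusted test. The 5 skeletal muscle markers had sums of 2.00 to 4.07 in WT and 5.79 to 35.7 in Dp1Tyb cultures. Most of each Dp1Tyb sum came from *Myh3*, an embryonic myosin with 1.04 to 2.04 normalised counts in WT and 3.86 to 30.3 in Dp1Tyb. *Myh3*, the only muscle marker tested, had a log2 fold change of 3.30. Its unadjusted p was under 0.05 in edgeR, where 3.13% of all tested genes had one, and it did not pass the adjusted test. *Myod1* had 0 in WT and 0 to 2.16 in Dp1Tyb cultures, and *Myog* 0 to 1.66 and 0.97 to 3.25. *Pax7* had at most 1.02, and the defining marker *Myf5* was at 0 in every culture. Endothelial markers had sums of 189 to 403 in WT and 146 to 526 in Dp1Tyb cultures. Of the 3 tested, *Emcn*, an endothelial sialomucin, had a log2 fold change of 1.77, and *Tek* and *Kdr* had -0.18 and -0.07. Only *Emcn* had an unadjusted p under 0.05 in edgeR, where 3.13% of all tested genes had one. Macrophage markers had sums of 432 to 1410 in WT and 177 to 2168 in Dp1Tyb cultures, epithelial markers 213 to 280 and 195 to 286, neuronal markers 1490 to 2026 and 1492 to 2027, and chondrocyte markers 639 to 796 and 651 to 1375. The part of these cells in the Hox values was not tested.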

How the data were processed

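RNA from MEF cultures was sequenced by the authors as paired reads from stranded mRNA libraries. Per the labels and methods, the authors trimmed reads with Trim Galore, mapped them to GRCm38 with TopHat2 2.0.12, discarded multiply aligned reads and deposited unnormalised htseq-count counts per Ensembl gene. The strand option and the annotation release of the counting are not given in the sources used here. The deposited normalised counts and the authors' DESeq2 table of fold changes and p-values were not used. Genes were named and measured with GENCODE M21 (GRCm38), which matched 42462 of 43629 genes.

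Groups follow the genotype label of each sample, and no culture was left out. Counts were tested for Dp1Tyb vs WT with edgeR 4.0.16 in R 4.3.3 (filterByExpr, TMM, quasi-likelihood, two-sided, no covariate, Benjamini-Hochberg adjusted p below 0.05), after tests on simulated data. Alternatives were DESeq2 1.42.0, its size factors in edgeR, other filters on low counts, the code series as a covariate, MEF2 cultures only, the replicate number as a block and each culture left out. RPKM was computed from counts, total counts and summed exon length. Genes were described in full where they had the 2 highest means, the largest fold change in each direction or the largest SD of a cluster, an unadjusted p below 0.05, groups that do not overlap, or the most posterior place with at least 10 counts in every culture. Of the other lists, members with an unadjusted p below 0.05 and the 3 highest of the limb and cofactor lists were described. Single genes, a Hox gene among them, are not reported here and not drawn, but they enter the counts, sums and medians. *Hoxa11os*, *Evx2*, *Tbx5*, *Hottip*, *Hotair*, *Hoxc9* and the paralog comparisons were chosen after values were seen. The group of 7 Hoxa and Hoxd genes numbered 10 to 13 was not planned beforehand either. Members and lists were chosen with earlier results of these data known, and the position classes were compared after the fold changes had been seen.

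Each culture is a separate embryo per the methods, and p-values measure the spread between these cultures. A count of 0 allows up to 3 counts, for counting error only. No pair of cultures agreed within sampling noise.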

Additional observations from a re-analysis of the deposited data

Results flagged for a closer look

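In groups of 4 or 5 cultures, a value was singled out when its gap to the nearest other culture was large for the range of its group (Dixon's 95% limit). Of 106 groups tested, 9 passed, where chance gives about 5.3. Dp1Tyb 1 stood high with 464 normalised counts of *Hoxa9*, 768 of *Hoxa10* and 162 of *Hoxd10*. Dp1Tyb 2 stood low with 9.74 of *Hoxd4*, Dp1Tyb 3 low with 26.99 of *Hoxa6* and Dp1Tyb 4 low with 65.0 of *Hoxd12*. Among WT cultures, WT 1 stood high with 575 of *Hoxa9* and WT 3 with 41.8 of *Hoxc11*. The mean log2 deviation of all tested Hoxc genes stood high in Dp1Tyb 4 at 0.20.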

How the results depend on the processing

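No Hox gene passed the adjusted test in any of the 17 alternatives, in which the count over all genes was 67 with DESeq2 (with and without its beta prior), 1 with MEF2 cultures only, 0 with the replicate block (802 at an unadjusted p under 0.05) and 2 to 26 with single cultures left out, against 24. Hox genes with an unadjusted p under 0.05 numbered 0 with both DESeq2 fits, with no filter and with at least 10 counts in every culture, 3 with MEF2 cultures only (437 of 14575 over all genes), 3 with the replicate block (5.51% of all tested genes) and 0 to 7 with single cultures left out. Of 37, they were 7 without WT 4, 6 without Dp1Tyb 3, 4 without Dp1Tyb 1 and 2 without WT 1, where 4.64%, 3.74%, 4.03% and 2.98% of all tested genes had one, and 0 without WT 3, Dp1Tyb 4 or Dp1Tyb 5, against 1. Deviations of WT and Dp1Tyb cultures with different numbers correlated at -0.57 to 0.49. Those of same-numbered cultures correlated at 0.030 to 0.73, 3 of 4 over 0.1, and 1 WT culture correlated best with its own number. Since 1 pair was under 0.1 and the labels tie no number to a litter or day, beyond the MEF1 code that WT 1 and Dp1Tyb 1 share, the cultures were not treated as pairs, and whether some are paired is not known.

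The posterior median stayed between -0.49 and -0.20 with single cultures left out (13 to 15 genes below 0), and the anterior and central median between 0.21 and 0.37 (18 to 20 above 0). With the beta prior of DESeq2 they were -0.13 and 0.17. These were added after seeing the data. With single cultures left out, *Hoxb9* ran from -0.15 to 0.16, *Hoxc8* from -0.015 to 0.34, *Hoxd3* from -1.11 to 0.14, *Hoxd4* from -0.26 to 0.67 and *Hoxd8* from -0.33 to 0.14, and with MEF2 cultures only *Hoxd3* was 0.28 and *Hoxd8* 0.16. The other 12 named genes kept their direction, but in 9 of them leaving out a single culture moved the value by over 1.5 times. Their ranges were -0.63 to -0.08 for *Hoxd13*, -0.65 to -0.19 for *Hoxa13*, -0.57 to -0.25 for *Hoxa10*, -1.07 to -0.38 for *Hoxb13*, -0.87 to -0.35 for *Hoxc13*, 0.13 to 0.47 for *Hoxa7*, 0.11 to 0.44 for *Hoxb7*, 0.22 to 0.48 for *Hoxc5* and 0.0050 to 0.19 for *Hoxc6*. The median ran from -0.015 to 0.19 in Hoxc and from -0.44 to 0.13 in Hoxd. Hoxd genes above 1 RPKM numbered 5 by the mean, 9 above 0.1 RPKM and 2 above 1 RPKM in every culture. The causes were not tested. Few counts limit *Hoxb13*, *Hoxc12*, *Hoxd3* and *Hoxd4*.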
